A study of Mus musculus with 8 samples.

Results

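The regions described here are the ChIP-seq peaks that lie next to the centromere on mouse chromosomes 1 to 19. A peak was taken when its midpoint lay below 8 Mb in build mm9, in which the assembled sequence of each chromosome starts at 3 Mb on the centromere side. This gives a window of 5 Mb on each of 19 chromosomes. Of 38359 peaks in the 5 lists, 1679 lay in these windows, of which 720 were H3K9me3 peaks of wild-type (WT) cells, 122 H3K9me3 peaks of cells labelled KAP1 KO, 442 H4K20me3 peaks of WT cells, 374 H4K20me3 peaks of KO cells and 21 KAP1 peaks of WT cells. All libraries came from mouse embryonic fibroblasts (MEF), connective tissue cells grown from embryos. Antibodies against KAP1 (WT cells), H3K9me3 and H4K20me3 (WT and KO cells) were used, with 1 library for each, and the input libraries were not analysed here. The allele behind the KO label, its mode of deletion, the age of the embryos and the number of cultures were not given in the sources used here. KAP1 itself was profiled in WT cells alone, so the knockout was not checked. The series' title places the study around KAP1 and the return of heterochromatin after DNA replication.

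Mouse chromosomes are acrocentric: the centromere sits at one end, beside long arrays of satellite repeats that stay condensed as pericentromeric heterochromatin. These long arrays are missing from the assembled sequence, so the windows hold the sequence that borders them. Whether the first assembled bases include satellite or other repeats was not checked. At satellite repeats H3K9me3 is written mainly by the SUV39H enzymes and read by HP1 proteins, and H4K20me3 is laid down by SUV420H enzymes that HP1 recruits. KAP1 (TRIM28) is brought to other sites by KRAB zinc finger proteins and recruits the methyltransferase SETDB1, which also writes H3K9me3. The window therefore borders a territory where both marks are known to occur together.

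Each list gives a position and a score for every peak, with no read counts, so depth is unknown. The score is the authors' own value for the peak and is used here within a list. Since each group has 1 library, no difference between genotypes has a replicate check and no test was run. The 95% intervals are exact Clopper-Pearson intervals that cover counting error over peaks alone, and neighbouring peaks are not independent. "Rest" means the remainder of chromosomes 1 to 19, from 8 Mb to the highest peak end of any list. Peaks were counted as shared when they overlapped by at least 1 bp, and a WT peak shared with the KO list of the same mark is called kept. A missing peak means that none was called. Gaps in the assembly and stretches where reads cannot be placed were not subtracted from spans. How the authors placed reads that match several repeats was not given in the sources used here, and its part in the results was not tested. Regions carry a position but no gene name or sequence, because an mm9 genome and annotation were not used here.

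H3K9me3 was denser in the windows than elsewhere in WT cells, while H4K20me3 was not. WT H3K9me3 had 7.58 peaks per Mb in the windows and 5.81 in the rest, a ratio of 1.31. The ratio stayed between 1.22 and 1.38 when any 1 chromosome was left out. The density was higher in the window on 13 of the 19 chromosomes. WT H4K20me3 had 4.65 peaks per Mb in the windows and 4.60 in the rest. This near equality rested on chromosome 19, without which the window had 3.69 and the rest 4.56 peaks per Mb, and the window was the denser part on 6 of 19 chromosomes.

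In KO cells the densities in the windows were 1.28 peaks per Mb for H3K9me3 and 3.94 for H4K20me3. The rest had 1.18 and 3.58. For H3K9me3 the ratio of 1.09 changed side when chromosome 3 was left out (0.934), and it was also just below 1 without chromosome 6 or without chromosome 14. For H4K20me3 the ratio of 1.10 became 0.867 without chromosome 19. The KO to WT ratio of H3K9me3 peak numbers was 0.169 in the windows and 0.203 in the rest. By covered length the order was the other way, at 0.272 and 0.222. H3K9me3 covered 425 kb of the windows in WT cells and 116 kb in KO cells. H4K20me3 numbers had a KO to WT ratio of 0.846 in the windows and 0.778 in the rest, and it covered 393 kb in WT and 337 kb in KO.

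**Figure D1:**
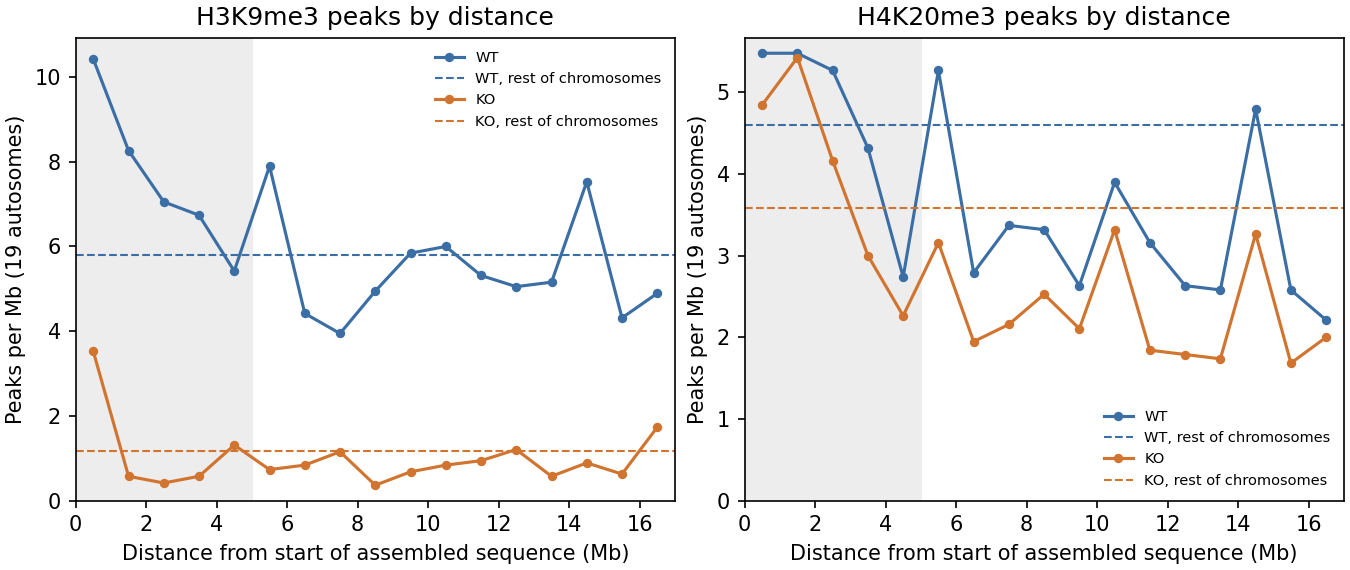
Peaks per Mb (vertical axis) by distance from the start of the assembled sequence in steps of 1 Mb (horizontal axis), summed over 19 autosomes, for H3K9me3 (left) and H4K20me3 (right) in WT (blue) and KO (orange). The grey band is the 5 Mb window and dashed lines are the density of the rest. KO H3K9me3 is highest in the first Mb (3.53 peaks per Mb), and WT H3K9me3 steps down from 10.4.

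The KO H3K9me3 peaks were not spread evenly over the window. From the first to the fifth Mb they numbered 67, 11, 8, 11 and 25. The WT H3K9me3 peaks numbered 198, 157, 134, 128 and 103 over the same steps. Both lists were thus highest in the first Mb, where WT stood at 1.80 times the density of the rest and KO at 2.99 times. Beyond the first Mb the WT density remained 1.18 times that of the rest, and the KO density was 0.613 times that of the rest. Low KO densities were not limited to the windows. In the 1 Mb steps from 8 to 13 Mb they were 0.737, 0.842, 1.16, 0.368 and 0.684 peaks per Mb, with 1.18 peaks per Mb over the whole rest. The fifth Mb, where KO reached 25 peaks, holds a group on chromosome 7 and another on chromosome 14, described further on.

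The KO peaks crowded at the very edge of the assembled sequence. The first 200 kb of the 19 chromosomes, a limit chosen after the profile was seen, held 56 of the 122 KO H3K9me3 peaks (45.9%, interval 36.8 to 55.2%). That is 14.7 peaks per Mb, or 12.5 times the density of the rest. The same stretch held 88 WT H3K9me3 peaks, at 23.2 per Mb, or 3.99 times the rest. For H4K20me3 it held 17 WT and 18 KO peaks, at 0.973 and 1.32 times the rest. From 3.2 to 8 Mb the KO H3K9me3 density was 0.724 per Mb, 0.613 times the rest, but at a score of at least 100 it was 0.997 times the rest (16 peaks). In the first 100 kb alone KO H3K9me3 had 45 peaks, 20.0 times the density of the rest, and WT had 54, at 4.90 times. Counting peaks within 5 kb as 1 region left 20 KO regions in the first 200 kb, still 5.62 times the density of the rest. The same count left 46 WT regions, at 3.09 times. With a score of at least 100 there were 25 KO peaks, at 37.4 times, and 27 WT peaks, at 3.85 times.

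The KO edge peaks came mostly from few chromosomes. Chromosome 3 held 16 of the 56 KO peaks, chromosome 17 held 12, chromosome 6 held 9 and chromosome 4 held 8, together 45. The WT numbers on the same chromosomes were 6, 12, 3 and 12. On 8 chromosomes no KO H3K9me3 peak lay in the first 200 kb, and on 4 no WT peak did. Without chromosomes 3, 4, 6 and 17 the KO density there was 3.01 times that of the rest and the WT density 3.48 times. These chromosomes were picked for their KO numbers, so the lower KO value follows in part from that choice. Among bins of 200 kb over chromosomes 1 to 19, at least 5 KO H3K9me3 peaks were found in 4 of the 19 bins at the edge (21.1%) and in 102 of 11606 bins of the rest (0.879%). At least 5 WT H3K9me3 peaks were found in 8 of the 19 bins at the edge (42.1%) and in 625 bins of the rest (5.39%).

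**Figure D2:**
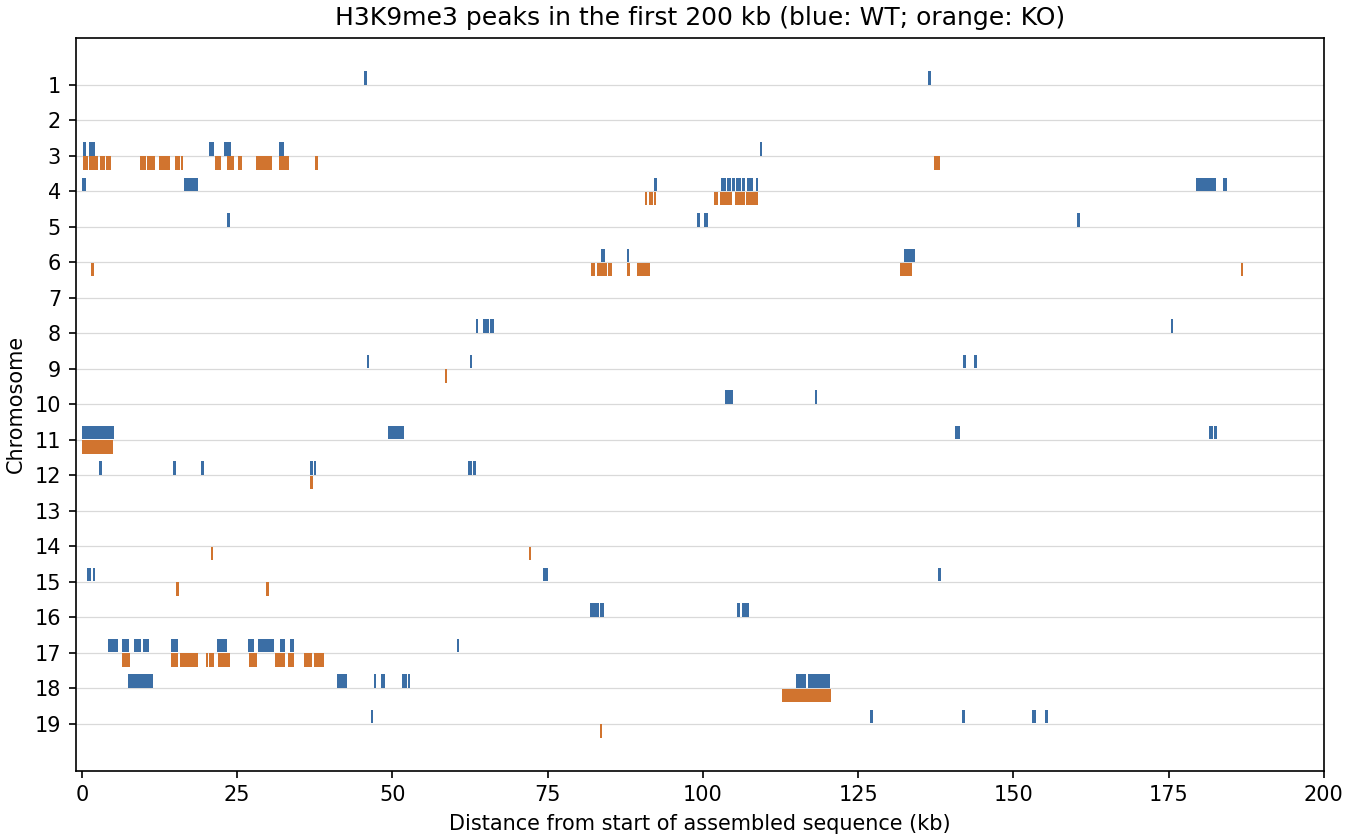
H3K9me3 peaks in the first 200 kb of each chromosome, drawn to scale by distance from the start of the assembled sequence in kb (horizontal axis), with 1 line per chromosome (peaks narrower than 0.4 kb are drawn at 0.4 kb). WT peaks (blue) are above and KO peaks (orange) below each line. KO peaks crowd on chromosomes 3, 4, 6 and 17, which hold 45 of 56, and WT peaks are most numerous on chromosomes 4, 17 and 18, with 12 each.

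On chromosome 3 a run of KO peaks began at the first assembled bases. A run is a chain of H3K9me3 peaks of either genotype with gaps of at most 20 kb. This one spanned 37.9 kb (3000131 to 3038002) and held 15 KO and 5 WT peaks. Of the WT peaks 4 were kept, the first at 3000131 to 3000638 with a WT score of 57.0 and a KO score of 104. The highest KO score in the run was 195, at 3031734 to 3033345, over a WT peak with a score of 51.8. Most KO peaks of this run had no WT partner, and the strongest of those lay at 3009328 to 3010331 with a score of 147.

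On chromosome 17 both genotypes covered the edge about equally by number. The run from 3004176 to 3038965 held 11 WT and 12 KO peaks, and 6 of the WT peaks were kept. The WT scores of the 6 ranged from 51.8 to 129 and the KO scores of their partners from 60.0 to 187. The strongest KO peak here, at 3037318 to 3038965, had a score of 225 and no WT partner.

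On chromosome 4 every WT peak of the run was kept. The run from 3090678 to 3108919 held 8 WT and 8 KO peaks. The highest KO score, 618, belonged to a peak at 3102838 to 3104721 that overlapped 3 separate WT peaks, with WT scores of 133, 319 and 78.2. Neighbouring WT peaks also shared a KO peak on chromosome 18, where 1 KO peak of 5600 bp (3115067 to 3120666, scoring 1005) overlapped 4 WT peaks with scores of 401, 326, 114 and 137. On chromosome 6 the run from 3082028 to 3091472 held 2 WT peaks, both kept, and 6 KO peaks. The first peak of chromosome 11 was kept as well, at 3000006 to 3005221 in WT (scoring 292) and 2999999 to 3004934 in KO (scoring 199).

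WT H3K9me3 peaks next to the centromere were kept more often than those in the rest, and the higher share lay mainly at the edge. In the windows 44 of 720 were kept (6.11%, interval 4.48 to 8.12%), and in the rest 299 of 13465 (2.22%, interval 1.98 to 2.48%). Over the whole WT list the share was 3.1%. In the first 200 kb 27 of 88 were kept (30.7%, interval 21.3 to 41.4%). From 3.2 to 4 Mb 5 of 110 were (4.55%, interval 1.49 to 10.3%), and from 4 to 8 Mb 12 of 522 (2.30%, interval 1.19 to 3.98%), close to the rest. Without the first 200 kb the share in the window was 2.69%. On chromosomes 3, 4, 6 and 17 together, 21 of the 33 WT peaks in the first 200 kb were kept, and on the other chromosomes 6 of 55. These chromosomes were picked because they held most KO peaks there. A kept peak needs a KO peak, so this contrast follows in part from that choice.

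Seen from the KO list, 37 of the 122 window peaks lay on a WT H3K9me3 peak (30.3%, interval 22.3 to 39.3%), against 287 of 2740 in the rest (10.5%, interval 9.35 to 11.7%) and 13.6% over the whole KO list. The other 85 lay where no WT peak was called. The difference from the rest was clear for long KO peaks. From 1000 bp upwards 26 of 40 window peaks lay on a WT peak (65.0%, interval 48.3 to 79.4%), against 26.1% in the rest. From 500 to 1000 bp the share was 18.2% (interval 6.98 to 35.5%), against 15.1%. Below 500 bp it was 10.2% (interval 3.40 to 22.2%), against 5.46%. By bases, 35.6% of the WT H3K9me3 length in the first 200 kb was also covered in KO, 4.73% from 3.2 to 8 Mb, and 2.96% in the rest.

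**Figure D3:**
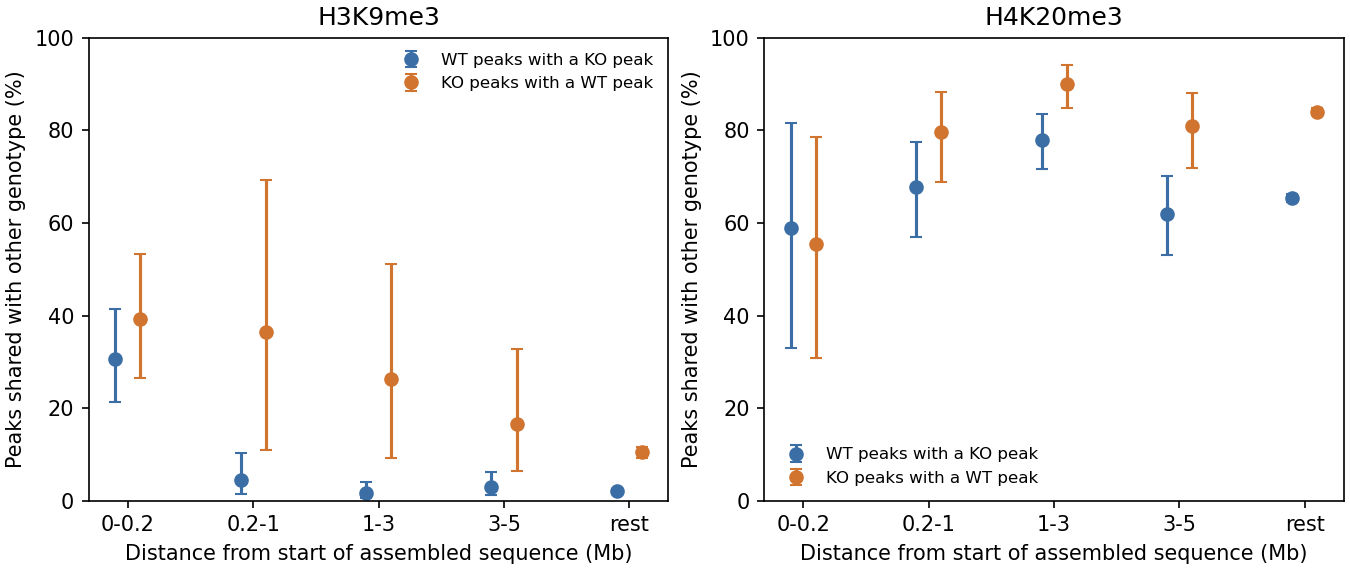
Percent of peaks shared with the other genotype (vertical axis) by distance from the start of the assembled sequence in Mb (horizontal axis), for H3K9me3 (left) and H4K20me3 (right). Blue points are WT peaks with a KO peak, orange points are KO peaks with a WT peak, and bars are exact 95% intervals over peaks. The share of WT H3K9me3 peaks kept is 30.7% in the first 200 kb and 2.22% in the rest, while H4K20me3 shares in the first 200 kb are 58.8% of WT and 55.6% of KO peaks, on 17 and 18 peaks.

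Over whole windows, the higher share of kept H3K9me3 peaks was seen at both low and high scores, with most kept peaks in the first Mb. Among WT peaks with a score below 100, 21 of 507 were kept in the windows (4.14%, interval 2.58 to 6.26%) and 1.39% in the rest. At scores from 100 upwards, 23 of 213 were kept (10.8%, interval 6.97 to 15.8%) and 3.99% in the rest. Of these, 16 of the 21 and 16 of the 23 lay in the first Mb, which held 136 and 62 WT peaks of these scores. The higher share over whole windows was also seen within classes of length. Of WT peaks of at least 1000 bp, 16 of 71 were kept in the windows (22.5%, interval 13.5 to 34.0%) and 7.93% in the rest. Of those shorter than 500 bp, 11 of 423 were kept (2.60%, interval 1.31 to 4.61%) and 1.09% in the rest. In these 2 classes of length, 11 of the 16 and 6 of the 11 kept peaks lay in the first Mb, among 30 and 102 WT peaks there.

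KO H3K9me3 peaks in the windows were long. Their median length was 599 bp, and 442 bp in the rest. In WT cells the medians were 444 bp in the windows and 460 bp in the rest. Of the KO window peaks 32.8% reached 1000 bp, and 12.6% of those in the rest. The KO median was 933 bp in the first 200 kb, 698 bp in the remainder of the first Mb and 455 bp beyond it. Peaks of the first 200 kb were also longer in the other lists, with medians of 616 bp for WT H3K9me3, 932 bp for WT H4K20me3 and 924 bp for KO H4K20me3. KO peaks on a WT peak had a median of 1363 bp in the windows and 664 bp in the rest. Over whole windows H4K20me3 lengths differed little from the rest, with medians of 778 bp in WT and 776 bp in KO and rest medians of 768 and 800 bp.

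The 44 kept WT H3K9me3 peaks lay on 10 of the 19 chromosomes. Chromosome 4 held 8, chromosome 17 held 7, chromosomes 3, 6 and 12 held 5 each, chromosome 18 held 4, chromosomes 10, 15 and 16 held 3 each and chromosome 11 held 1. The strongest lay away from the edge, in a block on chromosome 10. There 3 neighbouring WT peaks, at 7229218 to 7230612, 7230779 to 7235418 and 7236023 to 7237136, had scores of 2097, 3100 and 1012. Each had a KO peak of nearly the same borders, with scores of 1284, 3065 and 961. The next strongest kept peaks lay on chromosome 6 at 3803221 to 3804926 (WT score 442, KO score 478) and on chromosome 18 at 3114969 to 3116675 (WT score 401). A short block on chromosome 12 from 5061749 to 5066311 held 2 kept WT peaks, with scores of 111 and 60.3, and 3 KO peaks, the highest at 314.

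The 676 lost WT H3K9me3 peaks were shorter and weaker than the kept ones. Their median length was 438 bp and their median score 71.8, and the kept peaks had medians of 833 bp and 104. The rest had the same order, with medians of 456 bp and 74.8 for lost and 710 bp and 114 for kept peaks. In the windows, strong peaks were among the lost. The highest-scoring was on chromosome 8 at 4626297 to 4630025, with a score of 1053. Next came those on chromosome 16 (4806460 to 4809006, scoring 611), chromosome 19 (6950453 to 6953085, scoring 561), chromosome 5 (5236833 to 5238456, scoring 492) and chromosome 19 (5315949 to 5317288, scoring 461). All 5 lay between 4 and 7 Mb, beyond the edge. Of the 676 lost peaks 510 lay from 4 to 8 Mb, near the share of all WT window peaks there (522 of 720). In the first 200 kb lay 61 of the lost peaks and 88 of all WT peaks. The chromosome 16 peak belonged to a run of 12 WT peaks (4797542 to 4822152) without any KO peak, in the 1 Mb step (4 to 5 Mb) that held most WT peaks of any in the windows, with 24 in WT and 0 in KO.

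Among the 85 KO H3K9me3 peaks without a WT peak, 2 chromosomes held groups that lay wholly or mostly outside the edge. On chromosome 7 all 8 KO window peaks lay from 7314929 to 7481180, with scores of 52.9 to 100, and none was on a WT peak. On chromosome 14, 13 KO peaks of 261 to 1104 bp were spread over the window, 2 of them in the first 200 kb, with scores of 50.6 to 111 and a median of 63.6, where the WT list had 1 peak (7728086 to 7728389). The highest-scoring peaks of this class lay on chromosome 18 (5788960 to 5790550, scoring 415) and chromosome 15 (6480784 to 6482055, scoring 231). The one on chromosome 18 overlapped a WT H4K20me3 peak with a score of 59.9. The next were those named above on chromosomes 17 and 3 (scores of 225 and 147) and one on chromosome 16 (3235738 to 3237845, scoring 147). This last peak lies between KO peaks at 3231570 to 3235713 (scoring 451) and 3237886 to 3239953 (scoring 172), both of which overlap WT peaks.

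Chromosomes differed widely. WT H3K9me3 numbers in the window ran from 1 on chromosome 14 to 89 on chromosome 11, and the first 5 Mb was the densest of all 5 Mb steps on chromosomes 9, 11 and 18. On chromosome 18 it held 26 WT peaks, and no other step of that chromosome held more than 14. KO H3K9me3 numbers ran from 0 on chromosomes 1 and 5 to 20 on chromosome 3. They were lower than in WT on 18 chromosomes and higher on chromosome 14. On chromosome 11, 89 WT peaks stood against 1 KO peak, and on chromosome 19, 57 against 1. On chromosome 6 the numbers were 26 and 15, and on chromosome 17 they were 36 and 15.

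**Figure D4:**
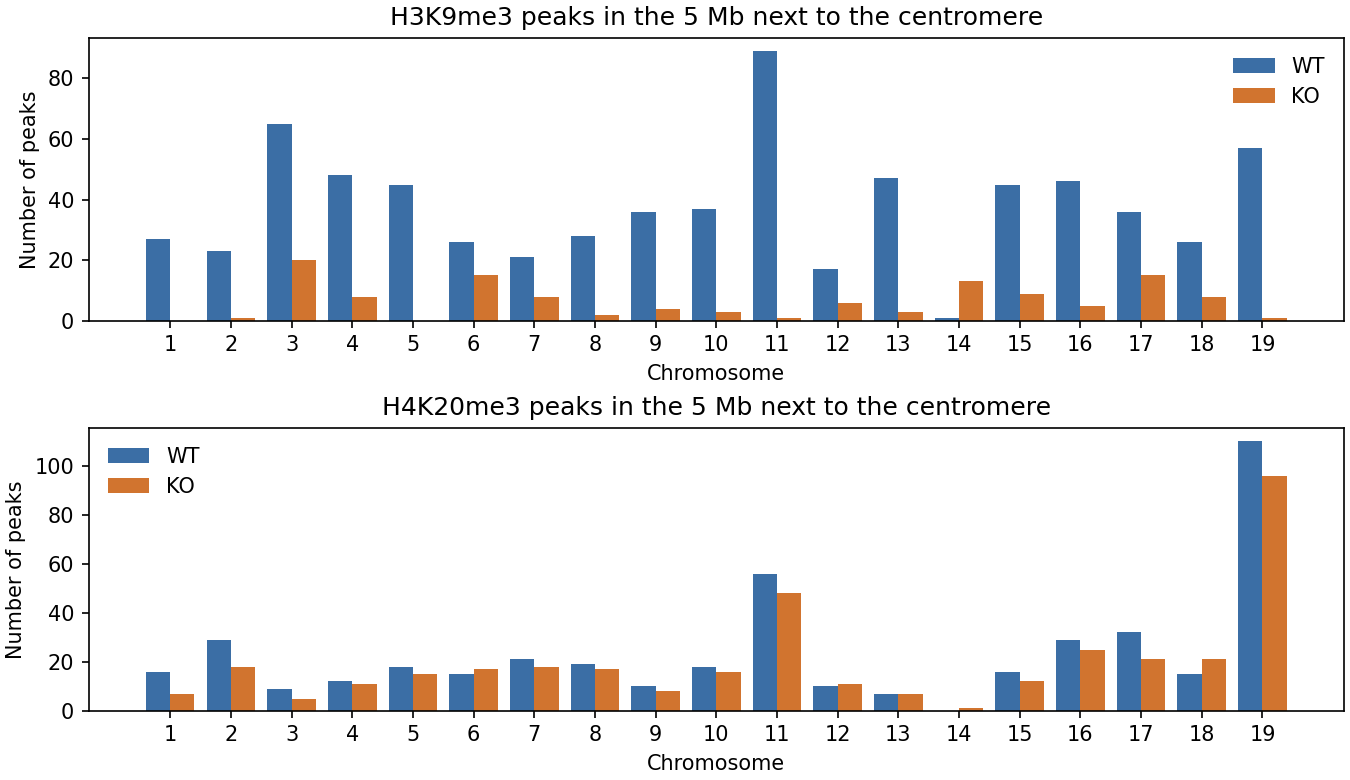
Number of peaks (vertical axis, from 0) in the 5 Mb next to the centromere on each chromosome (horizontal axis), for H3K9me3 (top) and H4K20me3 (bottom) in WT (blue) and KO (orange), with 1 library per bar. H3K9me3 falls from 89 to 1 on chromosome 11 and goes from 1 to 13 on chromosome 14, while H4K20me3 is highest on chromosome 19 in both genotypes (110 and 96).

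H4K20me3 in the windows was mostly called in both genotypes and was concentrated on chromosome 19. Of 442 WT peaks 311 were kept (70.4%, interval 65.9 to 74.6%), against 65.4% (interval 64.4 to 66.3%) in the rest and 65.6% over the whole list. Chromosome 19 held 110 WT and 96 KO peaks, or 24.9% and 25.7% of all window peaks. No other 5 Mb step of that chromosome held more than 68 WT or 50 KO peaks. On chromosome 19, 88 of the 110 were kept (80.0%, interval 71.3 to 87.0%), and without that chromosome 223 of 332 were (67.2%, interval 61.8 to 72.2%), which overlaps the interval of the rest. From the KO side 314 of 374 lay on a WT peak (84.0%, interval 79.8 to 87.5%), the same as the 84.0% in the rest, and the whole list had 83.2%. In the first 200 kb the shares were lower on few peaks, with 10 of 17 WT peaks kept (58.8%, interval 32.9 to 81.6%) and 10 of 18 KO peaks on a WT peak (55.6%, interval 30.8 to 78.5%). Chromosome 11 came next, with 56 WT and 48 KO peaks, and chromosome 14 had 0 WT peaks and 1 KO peak (7588842 to 7589809, scoring 236).

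The strongest kept H4K20me3 peaks were free of H3K9me3. They lay on chromosome 11 (6426025 to 6428992, WT score 2760, KO score 2878), chromosome 15 (5065840 to 5068137, scores 2107 and 2086), chromosome 17 (4993823 to 4996965, scores 1549 and 1982), chromosome 17 again (4625998 to 4626776, scores 1429 and 336) and chromosome 10 (7674968 to 7677090, scores 1150 and 1111). None of these 5 overlapped a WT H3K9me3 peak. That was the usual case, as 303 of the 311 kept WT peaks in the windows lay off WT H3K9me3. The strongest lost peaks mostly did overlap a WT H3K9me3 peak. They lay on chromosome 7 (4980845 to 4984269, scoring 790), chromosome 8 (4628041 to 4630080, scoring 566) and chromosome 2 (5205951 to 5207079, scoring 525, and 5096234 to 5098657, scoring 514), each on WT H3K9me3. The fifth, on chromosome 2 at 3157072 to 3159391 (scoring 460), was not on H3K9me3. Among all 131 lost WT peaks of the windows, 38 lay on WT H3K9me3. The KO peaks without a WT partner were weak, with a median score of 76.7 and a highest score of 308 on chromosome 18 (3336580 to 3337468).

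The marks met at few places in the windows. In WT cells 48 of 720 H3K9me3 peaks overlapped H4K20me3 (6.67%, interval 4.96 to 8.74%), against 9.0% (interval 8.52 to 9.50%) in the rest and 8.69% over the whole list. Seen from H4K20me3, 46 of 442 peaks lay on H3K9me3 (10.4%, interval 7.72 to 13.6%), 10.7% in the rest and 10.6% over the whole list. In the first 200 kb, where H3K9me3 was densest, 4 of 88 WT H3K9me3 peaks overlapped H4K20me3 (4.55%, interval 1.25 to 11.2%). From the H4K20me3 side 4 of 17 WT peaks there lay on H3K9me3 (23.5%, interval 6.81 to 49.9%). The strongest peak with both marks in WT was the middle one of the block on chromosome 10, over an H4K20me3 peak with a score of 192. The next were the lost peaks on chromosomes 8 and 19 (6950453 to 6953085) already named, a lost peak on chromosome 1 (6267049 to 6268232, scoring 370) and a kept one on chromosome 6 (4873686 to 4874382, scoring 332).

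In KO cells the overlap of both marks had the reverse order between window and rest. Of 122 KO H3K9me3 peaks, 12 overlapped a KO H4K20me3 peak (9.84%, interval 5.19 to 16.6%), against 68 of 2740 in the rest (2.48%, interval 1.93 to 3.14%) and 3.24% over the whole list. Of the 12, 7 lay in the first 200 kb, on chromosomes 3, 4, 6, 17 and 18, and 11 had a WT H3K9me3 peak. Of the 12, 5 also had a WT H4K20me3 peak. In all, 8 of the 122 KO H3K9me3 peaks lay on WT H4K20me3 (6.56%, interval 2.87 to 12.5%), against 2.92% in the rest and 2.96% over the whole list. The KO H4K20me3 peaks at these places were mostly weak, with scores of 51.8 to 290 and a median of 65.9, near the lowest score of the list. From the H4K20me3 side, 13 of 374 KO peaks in the windows lay on KO H3K9me3 (3.48%, interval 1.86 to 5.87%), against 0.819% in the rest and 1.15% over the whole list. Of the 13, 8 were among the 18 KO H4K20me3 peaks of the first 200 kb. From 4 to 8 Mb it was 3 of 282 (1.06%, interval 0.220 to 3.08%), close to the rest. On the WT H3K9me3 list lay 14 of the 374 (3.74%, interval 2.06 to 6.20%), against 1.48% in the rest and 1.7% over the whole list, and 6 of these 14 were in the first 200 kb.

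In the windows as in the rest, a smaller share of H4K20me3 peaks was kept where WT H3K9me3 was also called. In the windows 8 of 46 were kept (17.4%, interval 7.82 to 31.4%), and 303 of the 396 away from H3K9me3 (76.5%, interval 72.0 to 80.6%). In the rest the shares were 7.08% (interval 5.66 to 8.72%) and 72.4% (interval 71.4 to 73.3%). For peaks on H3K9me3 the window share rests on 46 peaks, and its interval overlaps that of the rest but does not include the rest's share. The difference was not tested. Of the 131 lost H4K20me3 peaks of the windows, 93 lay off H3K9me3 and 38 on it.

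KAP1 peaks were few in the windows, and their higher summed density there was within counting error. There were 21 on 11 chromosomes, 0.221 per Mb against 0.147 in the rest, a ratio of 1.51. The ratio lay between 1.22 (without chromosome 14) and 1.63 when any 1 chromosome was left out. The window was the denser part on 10 of 19 chromosomes, and the median ratio over chromosomes was 1.03. The windows held 5.82% of the KAP1 peaks of chromosomes 1 to 19 (interval 3.64 to 8.75%). This interval includes the windows' part of the span, 95 Mb beside 2319 Mb of rest. Of the 21 peaks, 7 lay on WT H3K9me3 (33.3%, interval 14.6 to 57.0%), with 45.0% in the rest and 44.4% over the whole list. On WT H4K20me3 lay 4 of them (19.05%, interval 5.45 to 41.9%, with 16.7% over the whole list). By class, 2 carried both marks, 5 had just H3K9me3, 2 had just H4K20me3 and 12 had no mark. In the KO lists none of the 21 positions carried H3K9me3 (4.3% over the whole list) and 1 carried H4K20me3 (4.3%). From the marks' side, 12 of 720 WT H3K9me3 peaks touched a KAP1 peak (1.67%, interval 0.864 to 2.89%, with 1.29% over the whole list), all of them between 4 and 8 Mb. For WT H4K20me3 it was 4 of 442 (0.905%, with 0.584% over the whole list). For KO H3K9me3 it was 0 of 122 (interval up to 2.98%, with 0.567% over the whole list), and for KO H4K20me3 1 of 374 (0.267%, with 0.179% over the whole list).

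The 3 strongest KAP1 peaks all lay on chromosome 7. The first, at 4981678 to 4983732 (scoring 1063), overlapped a WT H3K9me3 peak with a score of 73.0 and the lost H4K20me3 peak with a score of 790. The second, at 6084013 to 6084876 (scoring 643), lay on both marks, with WT scores of 144 and 153. The third, at 6140935 to 6141686 (scoring 559), lay on H4K20me3 alone (scoring 68.8). Neither mark was called in KO at any of the 3. Those on chromosome 12 (3589944 to 3590515, scoring 305) and chromosome 15 (4029275 to 4029902, scoring 232) carried neither mark. The peak on chromosome 17 (4626026 to 4626611, scoring 143) lay inside the kept H4K20me3 peak of that chromosome, whose WT score was 1429 and KO score 336. The remaining named peaks were those on chromosome 1 (7700014 to 7700419, scoring 115) and chromosome 14 (7155064 to 7155791, scoring 73.5), with neither mark, and on chromosome 18 (6422470 to 6423020, scoring 115) and chromosome 6 (4697686 to 4698124, scoring 78.1), with WT H3K9me3 alone. The other 11 had scores of 51.2 to 73.1, and 3 of them lay on WT H3K9me3. At the edge, where KO H3K9me3 peaks crowded, a single KAP1 peak was called in the first 200 kb, on chromosome 11 (3014341 to 3015060, scoring 60.3), and it overlapped no mark.

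The peaks nearest to the 8 Mb limit were these. The last peaks inside it were 2 WT H3K9me3 peaks on chromosome 7, at 7991899 to 7992488 (scoring 111) and 7997828 to 7998121 (scoring 50.4). The first peaks outside it were an H4K20me3 pair on chromosome 9, at 8003567 to 8004599 in KO (scoring 490) and 8003630 to 8004723 in WT (scoring 421).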

How the data were processed

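The submitters' processing notes name Bowtie2 2.2.1, MACS 1.4, CASAVA 1.82 and build mm9. MACS settings and the controls of the histone calls were not given in the sources used here. The KAP1 peaks, per the file headers, come from a WT KAP1 library set against a WT MEF library. Each peak carries a deposited score, between 50.0 and 3225,, and was used here within a list. Reads and depth per library were not given, which limits any comparison of peak numbers.

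Peaks were sorted by midpoint into windows and rest, and overlaps of at least 1 bp were found in Python 3.11.15 (pandas 2.3.3, numpy 2.4.6), with intervals from scipy 1.17.1 and figures from matplotlib 3.10.9. Overlap calls were tested on simulated data and compared with bedtools 2.31.1, and 0 of 40 combinations of lists and rules differed. Positions count from 1. Groups came from sample titles. Named regions are up to 5 of the highest-scoring peaks per class, up to 10 KAP1 peaks, the 1 Mb steps with most peaks and the peaks nearest to the limit, plus runs and groups chosen after their values were seen. Alternatives were stricter overlap, a 1 kb distance, a score of at least 100, equal numbers, merging within 5 kb, limits of 5 and 13 Mb, leaving out the first 100 or 200 kb, and leaving out each chromosome. The members and lists were chosen with earlier results of these data known.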

Additional observations from a re-analysis of the deposited data

Results flagged for a closer look

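Among chromosomes with at least 10 window peaks of a mark in WT and KO together, 4 had a peak number that changed in one direction next to the centromere and in the other over the rest of the chromosome. Below that number, H4K20me3 on chromosome 14 also did so, with 0 WT and 1 KO peak in the window and 305 and 290 in the rest. With 1 library per genotype these differences were not tested. H3K9me3 on chromosome 14 went from 1 WT to 13 KO peaks in the window, a KO to WT ratio of 13 with a counting interval of 1.95 to 552, and from 266 to 66 in the rest, a ratio of 0.248. The H4K20me3 differences were small. The KO to WT ratio was 1.13 in the window of chromosome 6 (15 and 17 peaks, interval 0.532 to 2.44) and 0.827 in its rest. It was 1.10 in the window of chromosome 12 (10 and 11 peaks, interval 0.424 to 2.89) and 0.821 in its rest. On chromosome 7 it was 0.857 in the window (21 and 18 peaks, interval 0.431 to 1.69) and 1.05 in its rest. All 3 of these H4K20me3 intervals include 1.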

How the results depend on the processing

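Apart from leaving out chromosomes, the alternatives gave 41 values that moved by less than the counting interval and 31 that moved by more. No paired analysis was possible because each group has 1 library. For overlap shares the score limit here was set on both lists, whereas the score classes given earlier limited the WT list alone. The share of WT H3K9me3 peaks kept in KO was 9.39% at a score of at least 100 (rest 2.43%). With equal numbers of highest-scoring peaks it was 11.03% (rest 4.68%). It was 9.86% below 5 Mb, 4.35% without the first 100 kb and 2.69% without the first 200 kb (rest 2.22%). This last alternative and both results on the first 200 kb were chosen after seeing the data. After merging within 5 kb the kept share of WT H3K9me3 in the windows was 4.86% (rest 2.56%). For H4K20me3 the share was 77.3% at a score of at least 100 (rest 72.8%), 80.4% with equal numbers (rest 75.3%) and 76.3% after merging (rest 71.7%). WT H3K9me3 on H4K20me3 was 11.03% with equal numbers (rest 17.3%) and 8.89% within 1 kb (rest 12.0%), and WT H4K20me3 on H3K9me3 was 6.25% at a score of at least 100 (rest 6.64%) and 5.11% with equal numbers (rest 6.26%). The share of the WT H3K9me3 list in the window was 4.66% with equal numbers, 4.71% and 4.48% without the first 100 and 200 kb, and 2.50% and 8.70% with limits of 5 and 13 Mb. For KO H3K9me3 it was 9.13% at a score of at least 100, 3.34% after merging, 2.73% and 2.35% without the first 100 and 200 kb, and 2.73% and 6.78% with limits of 5 and 13 Mb. For H4K20me3 the limits of 5 and 13 Mb gave 1.87% and 6.95% in WT and 2.25% and 6.92% in KO. The part of KO H3K9me3 window peaks in the first 200 kb was 61.0% at a score of at least 100 and 26.7% after merging, and the WT peaks kept there were 48.1% at that score and 52.9% with equal numbers. Leaving out 1 chromosome at a time, the share in the window lay between 3.11 and 4.17% for WT H4K20me3 and between 3.33 and 4.49% for KO H4K20me3, lowest without chromosome 19. Other limits of a window change how much sequence it holds, and the cause of the other movements was not tested. Depth is unknown for all libraries, so a missing peak cannot be told apart from one below the caller's threshold.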

Other observations

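Some lost WT H3K9me3 peaks had a KO peak in the neighbourhood without overlapping it. Within 100 kb of a KO H3K9me3 peak lay 54 of the 166 lost WT peaks of the first Mb (32.5%, interval 25.5 to 40.2%). From 4 to 8 Mb this was so for 37 of 510 (7.25%, interval 5.16 to 9.86%), and in the rest for 14.9%. Over the whole window it was 13.5%, close to the rest. Within 10 kb the shares were 5.42% in the first Mb, 1.92% in the window and 3.45% in the rest. Within 1 kb the numbers were 6 of 166 in the first Mb (3.61%, interval 1.34 to 7.70%) and 0.790% in the rest.

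On chromosome 14 the 1 Mb step from 7 to 8 Mb held 3 KAP1 peaks, the most of any step in the windows, together with 7 KO H3K9me3 peaks, 1 WT H3K9me3 peak and 0 WT H4K20me3 peaks. No KAP1 peak of this step overlapped a KO H3K9me3 peak. The KAP1 peak at 7155064 to 7155791 lay after KO peaks at 7152506 to 7152934 and 7153043 to 7153368.

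H3K9me3 peaks of both genotypes came partly in runs. The windows held 448 runs, of which 229 were a single WT peak alone, and 24 held peaks of both genotypes. Runs with at least 3 KO peaks numbered 10 and held 59 of the 122 KO peaks, and runs with at least 3 WT peaks numbered 74 and held 295 of the 720 WT peaks.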
